A study of Mus musculus with 61 samples.

Results

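The mitochondrial genes described here are those whose symbol carries one of the family names of the organelle's large protein assemblies. They are Mrpl and Mrps (mitochondrial ribosome), Nduf (complex I), Sdh (complex II), Uqcr (complex III), Cox followed by a digit (complex IV), Atp5 (complex V), Timm and Tomm (protein import) and Slc25 (carriers). The rule reads the symbol alone and no measured value, but it was set with earlier results of these data known. It found 89 of the 5154 genes of the deposited Sono-seq table, with 91 of its 5513 promoter start sites and 219 of its 14265 enhancers. RefSeq lists 255 protein-coding mouse genes with such symbols, so the 89 are a part of the families. By role, read from the family name alone, they were 16 carriers, 16 complex I genes, 1 gene each of complexes II and III, 9 of complex IV, 10 of complex V, 6 of import, 20 of the large and 10 of the small subunit of the mitochondrial ribosome. The assembly factors Ndufaf3, Cox17 and Cox18 were counted with the complex of their name. A family name is not proof of role. Cox4nb, named for its neighbour Cox4i1, is listed by RefSeq as Emc8, a subunit of an endoplasmic reticulum membrane complex. Slc25a17 is known as a peroxisomal carrier, and Tomm34 as a largely cytosolic co-chaperone. RefSeq lists Atp5s as Dmac2l and Atp5sl as Dmac2.

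The cells were reprogramming intermediates grown from mouse embryonic fibroblasts of E13.5 embryos (strain Black6-129X1/SvJ) that carried Col1a1::tetOP-OKSM and R26-M2rtTA, taken on day 3. The first allele is a doxycycline-controlled cassette for Oct4, Klf4, Sox2 and Myc, and the second supplies its activator. All groups shared both alleles, the doxycycline (2 ug/ml) and ascorbate in serum/LIF medium. Sox2 ChIP-seq came as 1 immunoprecipitate and 1 input library each from Chaf1a.166, Chaf1a.2122 and Renilla cells, and Sono-seq as 3 CAF-1 knockdown and 3 Renilla libraries. Chaf1a encodes the large subunit of CAF-1, the chaperone that places histones on newly replicated DNA, and Renilla is a hairpin against a luciferase that mouse cells lack. Sono-seq reads the ends of sonicated cross-linked chromatin and is used as a measure of open chromatin. For each region the table holds a single CAF-1 knockdown value and a single Renilla value, and each hairpin has 1 list of Sox2 positions, so no difference between the conditions could be tested against replicate error. Cells in culture at day 3 are a mixture of responding and non-responding cells, and fewer cells with a signal cannot be told apart from less signal per cell. The table describes promoters and enhancers of embryonic stem cells. Of the marker genes looked up, 5 of 6 pluripotency genes and 1 of 9 fibroblast genes (Fn1) have a promoter in it.

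Mitochondria make most of a fibroblast's ATP by oxidative phosphorylation. Complexes I to IV pass electrons to oxygen and pump protons, and complex V uses the proton gradient to make ATP. Nearly all of their subunits, and all proteins of the mitochondrial ribosome, are encoded in the nucleus, made in the cytosol and brought in through the TOM and TIM translocases. Pluripotent cells rely more on glycolysis than fibroblasts do, and the change is known to begin early in reprogramming. Promoters of these genes are known for sites of the factors NRF1, GABP (an ETS family factor) and YY1.

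Promoter sequence was available from RefSeq (GRCm38.p6) for 71 of the 89 genes as 78 windows that run from 250 bases before the start site to 50 after it. The windows were rich in CpG, with a median of 21 CpG and 60.3% G and C, against 7 and 52.7% over all 32851 RefSeq windows. Windows of all genes of the Sono-seq table had a median of 22 CpG and 62% G and C, so the mitochondrial genes did not stand apart from the table in base composition. Motifs were searched as letters on both strands. NRF1 was GCGCATGC, whose reverse complement overlaps it by 6 letters, ETS/GABPA was CCGGAAGT, YY1 was AAGATGGC, the Sox core was AACAATG and the octamer was ATTTGCAT. Windows of 8 genes are shown with these letters in capitals, because the genes carry the results below: the 2 highest Sono-seq ratios (Ndufa6 and Mrps7), the lowest (Tomm20), a start region shared by a pair of genes of the set (Sdhd, with Timm8b), Sox2 at the start site in all lists (Ndufs7, Mrps10), Sox2 in the Renilla list alone (Ndufs4), and an ETS site beside a high ratio (Mrpl51).
Ndufa6: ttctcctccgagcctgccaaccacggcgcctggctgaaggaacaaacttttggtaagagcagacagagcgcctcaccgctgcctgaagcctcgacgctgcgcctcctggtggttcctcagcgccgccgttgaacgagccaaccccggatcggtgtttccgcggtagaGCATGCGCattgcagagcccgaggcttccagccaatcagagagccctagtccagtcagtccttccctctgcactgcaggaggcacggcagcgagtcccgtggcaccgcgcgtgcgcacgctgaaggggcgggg
Mrps7: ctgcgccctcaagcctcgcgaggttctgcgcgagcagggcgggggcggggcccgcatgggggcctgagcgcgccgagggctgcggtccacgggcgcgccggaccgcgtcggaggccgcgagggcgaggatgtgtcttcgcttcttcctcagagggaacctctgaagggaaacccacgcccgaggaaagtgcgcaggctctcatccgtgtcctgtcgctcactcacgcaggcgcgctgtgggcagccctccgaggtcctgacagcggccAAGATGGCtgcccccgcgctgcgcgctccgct
Mrpl51: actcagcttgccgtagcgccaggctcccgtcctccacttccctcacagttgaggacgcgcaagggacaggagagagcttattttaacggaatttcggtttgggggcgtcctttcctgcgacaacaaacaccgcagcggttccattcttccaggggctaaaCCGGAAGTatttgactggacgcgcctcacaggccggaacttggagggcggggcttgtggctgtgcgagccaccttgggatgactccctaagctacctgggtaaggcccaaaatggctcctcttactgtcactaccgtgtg
Tomm20: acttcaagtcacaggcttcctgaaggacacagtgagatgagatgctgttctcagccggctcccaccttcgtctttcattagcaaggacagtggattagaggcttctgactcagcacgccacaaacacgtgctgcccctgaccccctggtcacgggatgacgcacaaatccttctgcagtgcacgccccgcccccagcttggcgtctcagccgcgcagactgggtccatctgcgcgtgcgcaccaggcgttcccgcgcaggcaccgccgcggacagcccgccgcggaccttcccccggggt
Sdhd: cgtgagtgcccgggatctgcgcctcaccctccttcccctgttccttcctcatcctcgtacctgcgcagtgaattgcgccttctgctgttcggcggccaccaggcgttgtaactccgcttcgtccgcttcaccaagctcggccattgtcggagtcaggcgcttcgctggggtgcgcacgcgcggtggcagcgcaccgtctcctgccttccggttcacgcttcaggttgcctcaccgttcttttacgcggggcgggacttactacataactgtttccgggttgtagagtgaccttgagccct
Ndufs7: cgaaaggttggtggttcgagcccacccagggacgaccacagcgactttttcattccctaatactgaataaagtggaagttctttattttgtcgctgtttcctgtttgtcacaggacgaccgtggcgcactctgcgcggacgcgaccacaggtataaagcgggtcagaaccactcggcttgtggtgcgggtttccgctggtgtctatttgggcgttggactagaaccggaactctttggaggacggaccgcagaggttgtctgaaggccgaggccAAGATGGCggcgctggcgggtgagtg
Mrps10: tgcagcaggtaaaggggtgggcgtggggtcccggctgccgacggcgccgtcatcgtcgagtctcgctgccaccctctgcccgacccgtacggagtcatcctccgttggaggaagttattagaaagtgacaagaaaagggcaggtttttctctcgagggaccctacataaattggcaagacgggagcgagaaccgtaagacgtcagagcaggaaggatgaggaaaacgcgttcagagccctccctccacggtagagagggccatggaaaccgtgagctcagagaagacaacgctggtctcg
Ndufs4: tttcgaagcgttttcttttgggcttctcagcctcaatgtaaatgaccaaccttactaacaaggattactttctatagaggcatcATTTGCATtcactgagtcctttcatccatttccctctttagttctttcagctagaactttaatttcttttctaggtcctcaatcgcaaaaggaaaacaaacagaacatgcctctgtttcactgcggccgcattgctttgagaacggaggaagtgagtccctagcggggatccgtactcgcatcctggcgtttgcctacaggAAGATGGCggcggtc
In the same order the windows are chr15:82354242-82354541 (Ndufa6, minus strand), chr11:115603890-115604189 (Mrps7, plus strand), chr6:125191950-125192249 (Mrpl51, plus strand), chr8:126945872-126946171 (Tomm20, minus strand), chr9:50603800-50604099 (Sdhd, minus strand), chr10:80249199-80249498 (Ndufs7, plus strand), chr17:47368947-47369246 (Mrps10, plus strand) and chr13:114388045-114388344 (Ndufs4, minus strand) of GRCm38.p6, each read 5′ to 3′ on the strand of the gene. Sono-seq and Sox2 coordinates are mm9 and were not converted, so the Sox2 positions are given as distances from the mm9 start site and are not marked in these letters.

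The YY1 letters stood in 12 of the 78 windows (15.4%), against 2.75% of all RefSeq windows and 4.79% of the 4571 windows of genes in the Sono-seq table. A pair of overlapping windows of Atp5sl hold the same letters, so the 12 windows hold 11 separate sites. In 8 of the 12, on the strand of the gene, they began 14 to 36 bases after the start site, as they do in the windows of Mrps7, Ndufs7 and Ndufs4 above. Of all 903 RefSeq windows with these letters, 31.5% held them on the gene's strand after the start site. ETS/GABPA letters stood in 9 windows (11.5%), against 3.89% of all windows and 8.36% of the windows of the table's genes. Of these 9, 7 belonged to the mitochondrial ribosome, which has 25 windows. NRF1 letters stood in 7 windows (8.97%), against 2.71% and 5.91%. None of the 14 carrier windows and none of the 6 import windows held the NRF1 or YY1 letters. At the shares of the table's genes, so few windows cannot show a difference between roles. The Sox core stood in 1 window, that of Mrpl45 (1.28%, against 3.78% of all windows and 1.73% of those of the table's genes), and the octamer in 1, that of Ndufs4 (1.28%, against 1.74% and 1.68%). No window of the 15 from genes with a Sox2 position within 500 bp held the Sox core letters. At shares this low 15 windows are too few to show a difference. The windows also end short of 500 bp, so a Sox2 position can lie outside the letters searched. A match is a description of letters in a window.

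Over the 91 mitochondrial promoters the Sono-seq value had a median of 0.145 in CAF-1 knockdown cells and 0.143 in Renilla cells, in the deposited unit, whose scaling is not stated. The median log2 ratio of CAF-1 knockdown over Renilla was 0.031 (95% interval from order statistics -0.049 to 0.11), and 47 of 91 promoters (51.6%) were higher in CAF-1 knockdown cells. The 5422 other promoters had a median of -0.010, and 48.2% of them were higher. The ratios of single mitochondrial promoters spread with an SD of 0.23, as wide as the SD of 0.23 among the others, and this spread is between regions and not between libraries. A log2 ratio of at least 0.32, a value in CAF-1 knockdown cells that is 25% above that in Renilla cells, served as a threshold of size. It was reached by 11 promoters (12.1%, exact interval 6.19% to 20.6%), against 6.68% of all promoters. A log2 ratio of -0.32 or lower, a value 20% below that in Renilla cells, was found at 6 (6.59%, exact interval 2.46% to 13.8%), against 8.98% of all promoters. Both intervals cover the share of all promoters.

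**Figure D1:**
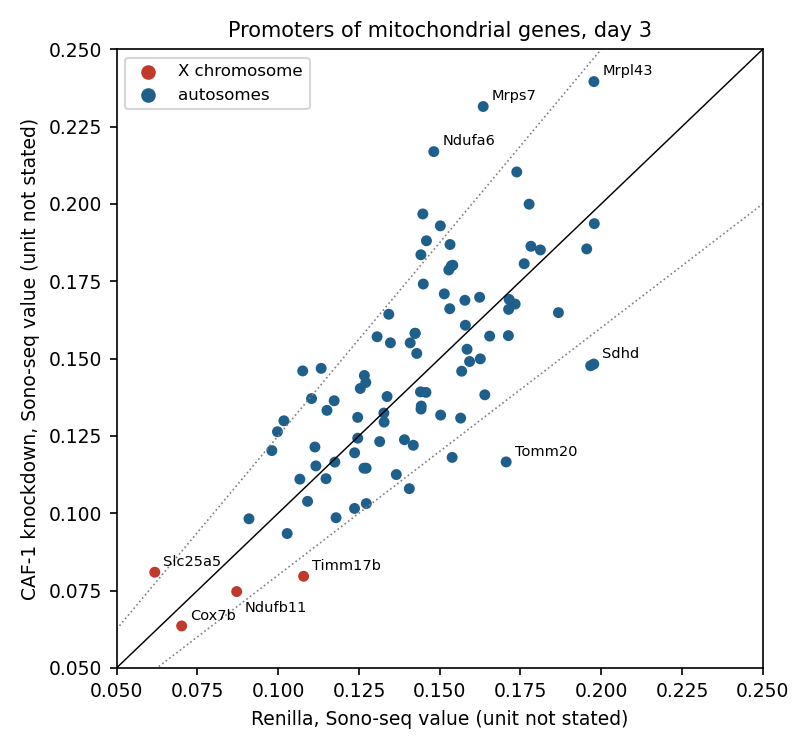
Sono-seq value of each of the 91 mitochondrial promoters in CAF-1 knockdown cells (vertical axis) and Renilla cells (horizontal axis), day 3, in the deposited unit. Each point is 1 start site, the solid line marks equal values, and dotted lines mark log2 ratios of 0.32 and -0.32; 11 points lie above the upper and 6 below the lower dotted line, and the X-linked promoters (red) lie at the low end of both axes.

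By level the mitochondrial promoters were ordinary as a set. Their median rank was percentile 51.7 of all promoters (mean of both conditions). The 3 highest were Mrpl43, with 0.240 in CAF-1 knockdown cells and 0.198 in Renilla cells, Mrps7, and Ndufa13, with 0.194 in CAF-1 knockdown cells and 0.198 in Renilla cells. Mrpl43 is a protein of the large ribosomal subunit, and Ndufa13 is a complex I subunit also described as a partner of STAT3. The 3 lowest were Cox7b, with 0.0635 in CAF-1 knockdown cells and 0.0701 in Renilla cells, Slc25a5, with 0.0809 in CAF-1 knockdown cells and 0.0618 in Renilla cells, and Ndufb11, with 0.0747 in CAF-1 knockdown cells and 0.0871 in Renilla cells. All of these lie on the X chromosome, as does Timm17b. The median rank of these 4 promoters was percentile 1.87. That of all 139 X-linked promoters of the table was percentile 2.52, so the low level was shared with the chromosome. Roles differed in level. The median percentile was 78.1 for complex I and 81.0 for complex V, but 22.6 for complex IV and 29.5 for carriers. It was 37.8 for import, 38.9 for the large and 53.6 for the small ribosomal subunit. The ratios by role below are not matched on level.

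The ratio of a promoter moved with its level in the whole table. Among the other genes the median ratio was -0.039, -0.020, -0.0033 and 0.025 in the quartiles from the lowest to the highest level. Set against others of the same quartile, the mitochondrial medians were -0.048 (26 promoters), -0.037 (19), 0.086 (17) and 0.097 (29). They lay below the others in both lower quartiles and above them in both upper quartiles. In every quartile the 95% interval of the mitochondrial median covered the median of the others. In the highest quartile 19 of 29 mitochondrial promoters (65.5%) were higher in CAF-1 knockdown cells, with a Clopper-Pearson interval of 45.7% to 82.1%, against 54.8% of the others.

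**Figure D2:**
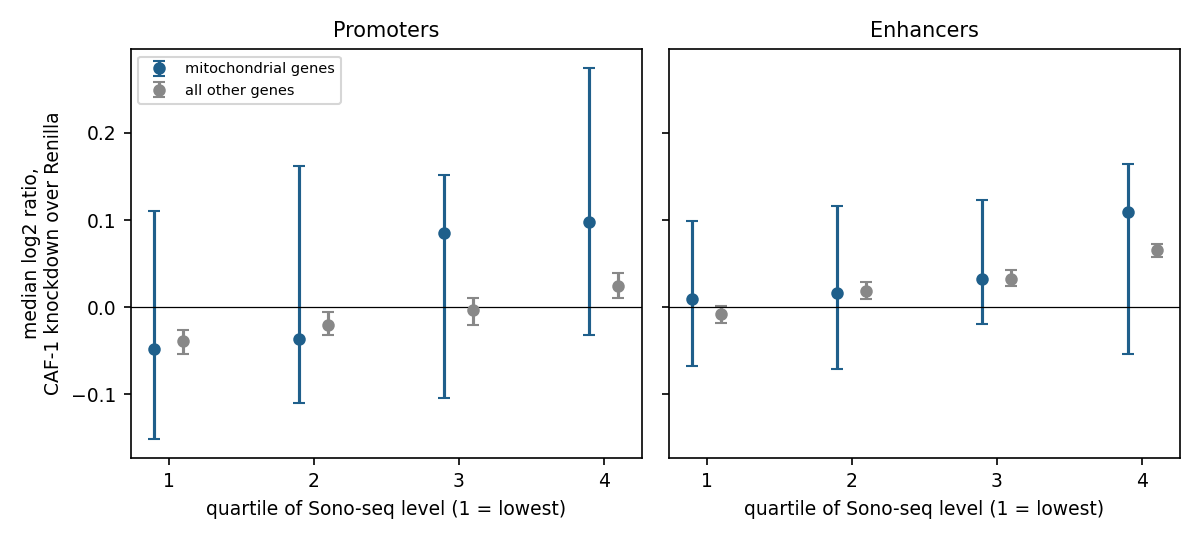
Median log2 ratio of the Sono-seq value, CAF-1 knockdown over Renilla, by quartile of level (1 is the lowest), for mitochondrial genes (blue, left of each pair) and all other genes (grey), at promoters (left panel) and enhancers (right panel). Bars are 95% intervals from order statistics over regions; in the highest quartile the promoter medians are 0.097 for mitochondrial genes and 0.025 for others, and the blue interval covers the grey point.

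Proteins of the mitochondrial ribosome, which makes the few proteins that mitochondrial DNA encodes, had a median promoter ratio of 0.13 for the large subunit (12 of 20 higher in CAF-1 knockdown cells) and 0.034 for the small subunit (5 of 10). The highest was Mrps7, a protein of the small subunit's head, with 0.231 in CAF-1 knockdown cells and 0.163 in Renilla cells, a log2 ratio of 0.50. Mrpl15 had 0.146 in CAF-1 knockdown cells and 0.108 in Renilla cells (0.44). Mrpl51 had 0.147 in CAF-1 knockdown cells and 0.113 in Renilla cells (0.37), and Mrpl54 had 0.184 in CAF-1 knockdown cells and 0.144 in Renilla cells (0.35). These are proteins of the large subunit. At the other end Mrpl55, also of the large subunit, had 0.118 in CAF-1 knockdown cells and 0.154 in Renilla cells (-0.38). The lowest of the small subunit was Mrps6, at -0.22.

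The 39 promoters with the family names of the respiratory chain and ATP synthase had a median ratio of 0.036, with 22 of 39 higher in CAF-1 knockdown cells. Without Cox4nb, Atp5s and Atp5sl, whose RefSeq names are others, the median was 0.034, with 20 of 36 higher. The family name of complex I, the entry point for electrons from NADH, had a median of 0.082 and held the highest ratio of all 91 promoters. This was Ndufa6, an accessory subunit, with 0.217 in CAF-1 knockdown cells and 0.148 in Renilla cells (0.55). Ndufs1, the largest iron-sulfur subunit of the complex, had 0.197 in CAF-1 knockdown cells and 0.145 in Renilla cells (0.44). Ndufa8 had 0.193 in CAF-1 knockdown cells and 0.150 in Renilla cells (0.36). Ndufs4, an accessory subunit whose loss causes a Leigh-like disease in mice, went the other way, with 0.108 in CAF-1 knockdown cells and 0.141 in Renilla cells (-0.38). Both sides of the threshold were thus occupied within 1 complex.

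Complex II was represented by Sdhd, a membrane anchor of succinate dehydrogenase, which had 0.148 in CAF-1 knockdown cells and 0.198 in Renilla cells (-0.42). Complex III was represented by Uqcrb, at 0.057. Complex IV, cytochrome c oxidase, had a median of -0.042, and Cox6c was its only promoter past the threshold, with 0.126 in CAF-1 knockdown cells and 0.0998 in Renilla cells (0.34). Its lowest was Cox7b, at -0.14. The family name of complex V, the ATP synthase, had a median of 0.097, with 9 of 11 promoters higher in CAF-1 knockdown cells. Counted once per gene, since Atp5g1 has a pair of start sites with nearly the same values, it was 8 of 10, and 7 of 8 without Atp5s and Atp5sl. The highest under the family name was Atp5s, with 0.188 in CAF-1 knockdown cells and 0.146 in Renilla cells (0.37). The lowest was Atp5b, the catalytic beta subunit, at -0.12. Complexes IV and V therefore had medians on opposite sides of 0, each within the spread of single promoters. Their levels also differed (median percentiles 22.6 and 81.0), and their ratios were not compared at matched level.

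Among the 6 import genes 5 were lower in CAF-1 knockdown cells, with a median of -0.35 (interval -0.55 to 0.29). Tomm20, the outer membrane receptor for presequences, was the lowest of all 91 promoters, with 0.117 in CAF-1 knockdown cells and 0.171 in Renilla cells (-0.55). Timm17b, of the inner membrane TIM23 translocase, had 0.0796 in CAF-1 knockdown cells and 0.108 in Renilla cells (-0.44). Timm8b, a small chaperone of the intermembrane space, had 0.148 in CAF-1 knockdown cells and 0.197 in Renilla cells (-0.41). Tomm34 was at -0.28 and Tomm7, a small regulator of the TOM complex, at -0.26. The exception was Timm44, which tethers the import motor to TIM23, with 0.164 in CAF-1 knockdown cells and 0.134 in Renilla cells (0.29). The import group is 6 start sites, and the interval of its median spans 0. Without Tomm34 the median was -0.41 over 5 start sites.

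The 16 genes of the carrier family, most of which serve the inner membrane, had a median of -0.026, with 7 higher in CAF-1 knockdown cells. None was at -0.32 or lower, against 8.98% of all promoters, and at that share 16 promoters are too few to show a difference. Without the peroxisomal Slc25a17 the median was -0.0044. Slc25a5, an ADP/ATP translocase, was the highest, at 0.39, from 1 of the lowest levels of the set. Slc25a36, a pyrimidine nucleotide carrier, followed with 0.130 in CAF-1 knockdown cells and 0.102 in Renilla cells (0.35). Slc25a4, the ADP/ATP translocase of heart and muscle, was at -0.049.

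**Figure D3:**
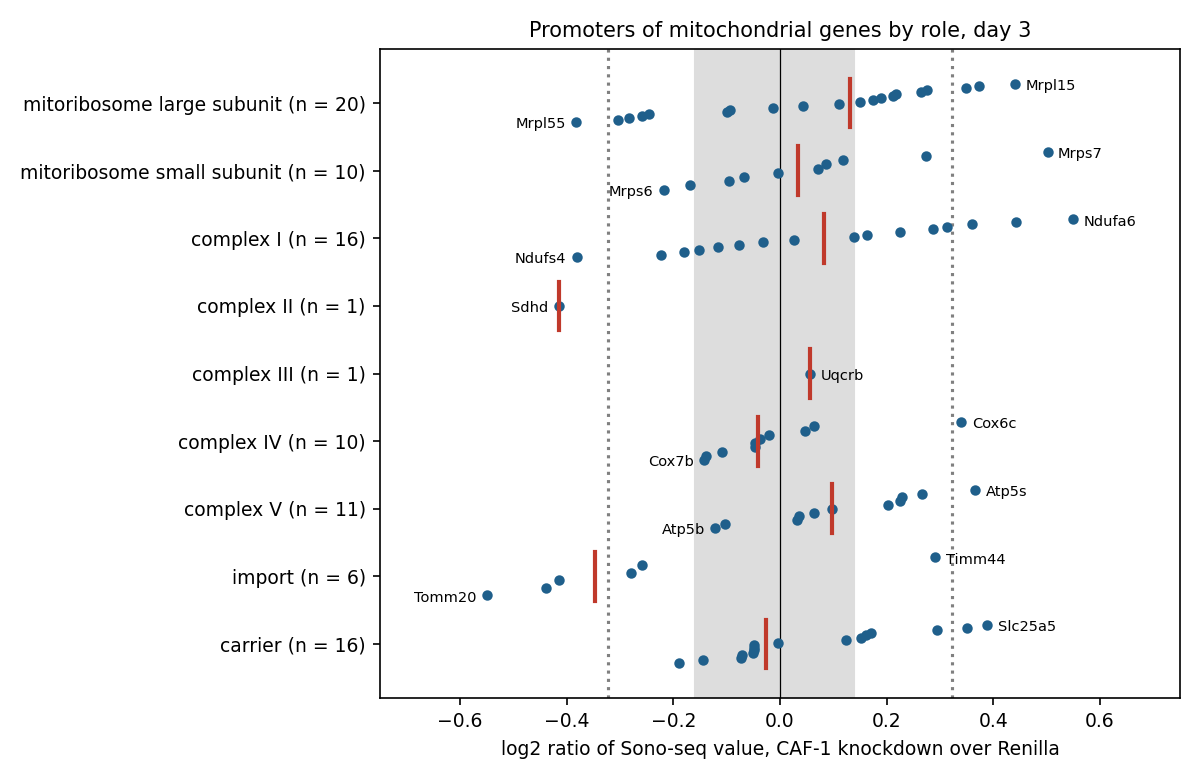
Log2 ratio of the Sono-seq value, CAF-1 knockdown over Renilla, for each mitochondrial promoter (point), by role and not matched on level. Red bars are medians, the grey band holds the middle of the other promoters (lower to upper quartile), and dotted lines mark log2 ratios of 0.32 and -0.32; the import group has 5 of 6 points below 0 and a median of -0.35, while complexes I and V and both ribosomal subunits have medians above 0.

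Many of these start sites lie beside that of another gene, and the deposited values then repeat. Of the 89 genes, 32 had a start site of another gene within 1000 bp. The 31 neighbouring start site pairs with a mitochondrial gene differed in ratio by a median of 0.014. The 457 pairs without a mitochondrial gene differed by a median of 0.027, so close values were a trait of pairs in the whole table. How many of the other genes have such a neighbour was not counted. Ndufs1 and Eef1b2 start 8 bp apart and had identical values. Sdhd and Timm8b start 51 bp apart and had ratios of -0.42 and -0.41, so these 2 calls are 1 observation. Mrps7 had 0.50 beside Gga3 with 0.52. Mrpl51 had 0.37 beside Ncapd2 with 0.59, the widest gap of the 31 pairs (0.22). Of the 17 promoters past the threshold in either direction, 8 had such a neighbour, and there the value belongs to a shared stretch of chromatin as much as to the mitochondrial gene.

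A list of other mitochondrial genes, with names outside the families, held 79 symbols, of which 37 were in the table with 38 promoters. Their median ratio was 0.0093. At 0.32 or higher were 4 (10.5%, against 6.68% of all promoters), and 4 were at -0.32 or lower (10.5%, against 8.98%). Counts this small do not set the list apart from all promoters. Yme1l1, an inner membrane protease, had 0.196 in CAF-1 knockdown cells and 0.119 in Renilla cells (0.72), a wider ratio than any promoter of the named families. Phb, a prohibitin of the inner membrane, was at 0.35. Peo1, the mitochondrial DNA helicase, was at 0.34 and starts 115 bp from Mrpl43. Of the 3 voltage-dependent anion channels of the outer membrane, Vdac3 had 0.120 in CAF-1 knockdown cells and 0.183 in Renilla cells (-0.61), and Vdac2 had 0.144 in CAF-1 knockdown cells and 0.187 in Renilla cells (-0.38). Vdac1 was at 0.093. Among the regulators, Yy1 was at -0.23, Nrf1 at 0.082 and Gabpa at 0.16, the last starting 451 bp from Atp5j.

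The 219 enhancers assigned to mitochondrial genes had a median ratio of 0.031, against 0.028 for the 14046 others, and 124 of 219 (56.6%) were higher in CAF-1 knockdown cells, against 55.3% of the others. At 0.32 or higher were 30 (13.7%, exact interval 9.44% to 19.0%), against 10.3% of all enhancers. At -0.32 or lower were 9 (4.11%, exact interval 1.90% to 7.66%), against 6.58% of all. Both intervals cover the share of all enhancers. Of the 30, 5 were assigned to Cox4i1 or Cox4nb, 4 to Cox6b2, and 21 also to a gene outside the families. Of the 9, 2 were assigned to Cox4i1 or Cox4nb. By quartile of level the medians were 0.0097, 0.016, 0.033 and 0.11 for mitochondrial genes and -0.0074, 0.019, 0.032 and 0.065 for the others. Mitochondrial genes had a median of 2 enhancers, against 3 for other genes, and 38 of 89 (42.7%) had a single one, against 29.4%. Of the 219, 143 (65.3%) were also assigned to a gene outside the families, so most of these values are not private to a mitochondrial gene. The share of enhancers with several genes was not counted for the other genes.

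The 3 genes with most enhancers were Cox4i1 (25), its neighbour Cox4nb (24) and Slc25a13 (12), the aspartate-glutamate carrier. Cox4i1 and Cox4nb share most of theirs with each other and with Gse1. Their enhancers ran from the highest to the lowest of those above the median level. At mm9 chromosome 8 position 123171700 the value was 0.184 in CAF-1 knockdown cells and 0.126 in Renilla cells (0.55), and at position 123040400 it was 0.130 in CAF-1 knockdown cells and 0.179 in Renilla cells (-0.46). The mean over the 25 enhancers of Cox4i1 was 0.077 ± 0.26 (SD over enhancers), so 1 gene's enhancers differed as much as those of different genes. Cox6b2, the testis isoform of a complex IV subunit, had 4 of 6 enhancers past the threshold towards CAF-1 knockdown cells, at log2 ratios of 0.34, 0.47, 0.49 and 0.69, and 5 of the 6 were shared with Suv420h2. Its 2 listed promoters were at -0.020 and 0.065.

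Promoter and enhancers of a gene did not always lie on the same side. Mrpl51 had a promoter ratio of 0.37 and its single enhancer, shared with Ncapd2, 0.164 in CAF-1 knockdown cells and 0.116 in Renilla cells (0.49). Slc25a38, the glycine carrier needed for haem synthesis, had a promoter at 0.29 and an enhancer, shared with Rpsa, Csrnp1 and Snora62, with 0.186 in CAF-1 knockdown cells and 0.133 in Renilla cells (0.49). Ndufs4 was lower at its promoter (-0.38) and at both enhancers (mean -0.31). Tomm20 had the lowest promoter and a mean over 3 enhancers of 0.23 ± 0.13 (SD over enhancers), all higher in CAF-1 knockdown cells. Mrpl15 had a promoter at 0.44 and its single enhancer at -0.28. After the enhancer of Cox4i1 and Cox4nb at -0.46, the lowest ratios above the median level were at enhancers of Slc25a4 (-0.40), Cox5a (-0.36), Mrpl33 (-0.35) and Slc25a36 (-0.34).

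A Sox2 position lay within 10 kb of the start site for 24 of the 89 genes in the Chaf1a.166 list (27.0%, exact interval 18.1% to 37.4%), against 28.5% of all genes. In the Chaf1a.2122 list it was 31 (34.8%, 25.04% to 45.7%), against 33.4% of all genes, and in the Renilla list 24 (27.0%, 18.1% to 37.4%), against 29.3% of all genes. The lists hold 15888, 19319 and 17681 positions, in that order. In at least 1 list it was 37 genes (41.6%), against 41.3% of the others. Every interval covers the background, so mitochondrial genes were not told apart from the table's other genes in how often Sox2 lay within 10 kb. Other mitochondrial genes outside the families were near a position in 8, 10 and 12 of 37 cases. Within the lowest quartile of level the share near a position was 15.4%, 23.1% and 11.5% of 26 mitochondrial genes in the Chaf1a.166, Chaf1a.2122 and Renilla lists, against 26.5%, 31.2% and 28.8% of the others. In the 3 upper quartiles it lay between 25.9% and 47.4%, against 28.5% to 34.5% of the others.

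In rank by the authors' score the positions near mitochondrial genes covered a wide range. None of the 24, 31 and 24 nearest positions in the Chaf1a.166, Chaf1a.2122 and Renilla lists was in the best-scored 10% of its list (exact upper limits 14.2%, 11.2% and 14.2%), against 9.29%, 8.05% and 8.42% of those near other genes. In the better-scored 50% were 7, 11 and 7 (29.2%, 35.5% and 29.2%), against 46.5%, 43.3% and 43.6% near other genes. The exact intervals of these shares, 12.6% to 51.1%, 19.2% to 54.6% and 12.6% to 51.1%, cover those of the other genes. The median position near a mitochondrial gene stood 56.6%, 67.7% and 70.4% of the way down its list, against 53.3%, 56.4% and 56.4% near other genes. With only positions whose enrichment over input has a lower bound of at least 2, 11, 21 and 14 mitochondrial genes were near one (12.4%, 23.6% and 15.7%), against 20.4%, 20.7% and 19.9% of the others, lower than the others in the Chaf1a.166 and Renilla lists and higher in the Chaf1a.2122 list. In each single list the share of the others lies within the exact interval of the mitochondrial share. Positions of all 3 lists were then near 3 mitochondrial genes (3.37%, exact interval 0.70% to 9.54%), against 11.9% of the others. That share of the others lies above the interval, 1 of many intervals compared here with no correction for their number.

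**Figure D4:**
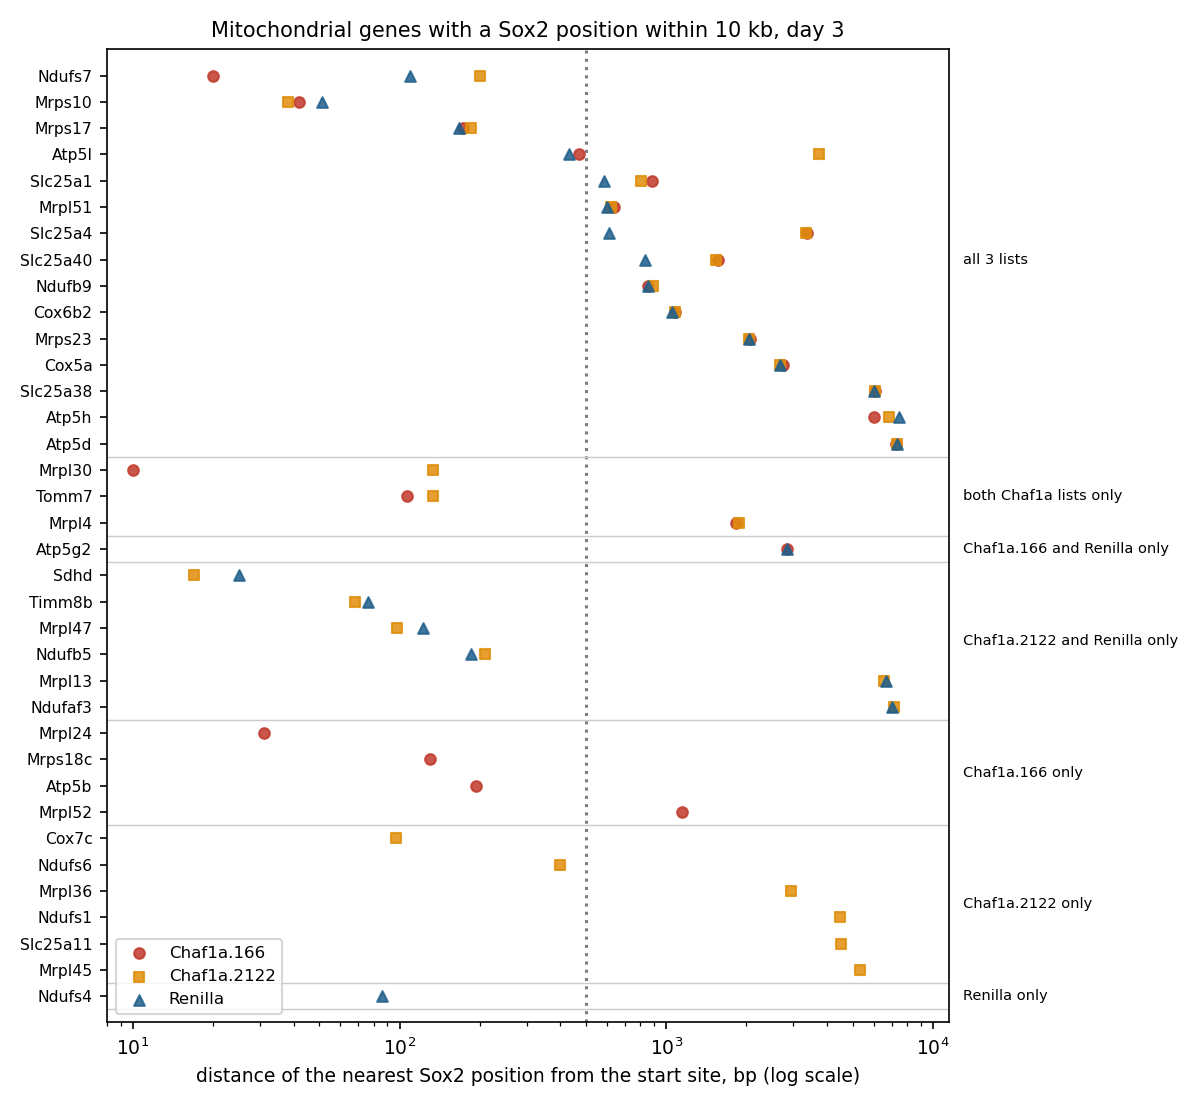
Distance in bp (log scale) of the nearest Sox2 position from the start site for 36 of the 37 mitochondrial genes with a position within 10 kb in at least 1 list, with Chaf1a.166 (circles), Chaf1a.2122 (squares) and Renilla (triangles), grouped by the lists that hold one. The dotted line marks 500 bp; 15 of the genes drawn have a position in all 3 lists, 3 in both Chaf1a lists only and 1, Ndufs4, in the Renilla list only.

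Positions of all 3 lists lay near 16 mitochondrial genes (17.98%, against 20.8% of all genes), among them Atp5d, Atp5h, Atp5l, Cox5a, Cox6b2, Mrpl51, Mrps10, Mrps17, Mrps23, Ndufb9, Ndufs7, Slc25a1, Slc25a38, Slc25a4 and Slc25a40. In 10 of the 16 the nearest positions of the lists lay less than 200 bp apart. Both Chaf1a lists but not the Renilla list held a position near Mrpl30, Mrpl4 and Tomm7, 3 genes (3.37%) against 2.99% of all genes. The Renilla list alone held one near Ndufs4, 1 gene (1.12%) against 3.26% of all genes. The Chaf1a.166 list alone held one near Atp5b, Mrpl24, Mrpl52 and Mrps18c (4.49%, against 2.97%), and the Chaf1a.2122 list alone near Cox7c, Mrpl36, Mrpl45, Ndufs1, Ndufs6 and Slc25a11 (6.74%, against 6.05%). Chaf1a.2122 and Renilla shared 6 (Mrpl13, Mrpl47, Ndufaf3, Ndufb5, Sdhd and Timm8b; 6.74%, against 3.51%), and Chaf1a.166 and Renilla shared 1 (Atp5g2; 1.12%, against 1.69%). The 3 genes of both Chaf1a lists and the 1 of the Renilla list alone give no difference between the hairpins that their counts could carry. With 1 library per hairpin and unknown read depth, a position absent from a list is one that missed that list's threshold.

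At the start site itself, within 500 bp, a position was held by 9 mitochondrial genes in the Chaf1a.166 list (10.1%, against 7.59% of all genes), by 12 in the Chaf1a.2122 list (13.5%, against 9.55%) and by 9 in the Renilla list (10.1%, against 7.86%). In any list it was 17 genes (19.1%, interval 11.5% to 28.8%), against 13.3% of the others. The difference was within the counting error of the mitochondrial share. Sdhd with Timm8b, and Mrpl47 with Ndufb5, were counted through the same positions. No carrier was among the 17, and 5 of the 16 complex I genes were. All 3 lists held a position within 500 bp of Mrps10, Mrps17 and Ndufs7 (3.37%, against 4.27% of all genes).

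Mrps10, of the small ribosomal subunit, had the best-scored of these positions. They lay 42 bp from its start site in the Chaf1a.166 list, 38 bp in the Chaf1a.2122 list and 51 bp in the Renilla list, and stood 43.5%, 22.1% and 16.2% of the way down the lists. Its promoter ratio was -0.0037, so the lists held Sox2 positions at a promoter whose Sono-seq values were all but equal in both conditions. The lower bound of enrichment over input at these positions was 0.858 in the Chaf1a.166 list, 3.95 in the Chaf1a.2122 list and 0.769 in the Renilla list. Enrichment at Mrps10 was therefore not secure in the Chaf1a.166 and Renilla lists. With the stricter lower bound used above, Mrps10 was near a position of the Chaf1a.2122 list only. Ndufs7, an iron-sulfur subunit of complex I, had positions 20, 201 and 109 bp away in the same order of lists, and a promoter with 0.187 in CAF-1 knockdown cells and 0.153 in Renilla cells (0.29). Mrps17 had them 173, 186 and 167 bp away, with a ratio of 0.072. Ndufb9, an accessory subunit of complex I, had positions 856, 891 and 858 bp away, and the one of the Renilla list, 13.3% of the way down, was the best-placed Renilla position near any of the 89 genes. Slc25a4 had its Chaf1a positions 3363 and 3335 bp away, at 21.0% and 11.5% of their lists, and its Renilla position 611 bp away, at 92.4%.

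Ndufs4, the gene of the Renilla list alone, had a position 86 bp from its start site, 87.8% of the way down the Renilla list, with the nearest Chaf1a.166 and Chaf1a.2122 positions 72272 and 59237 bp away. It is also 1 of the 6 promoters at -0.32 or lower, and its window above is the only one with the octamer letters. Mrpl30 had a Chaf1a.166 position 10 bp from its start site and a Chaf1a.2122 position at 133 bp. The closest position of the Renilla list lay at 18706 bp, and the promoter ratio was 0.043. Tomm7 had them at 107 and 133 bp and at 51281 bp in the Renilla list, with 0.0985 in CAF-1 knockdown cells and 0.118 in Renilla cells (-0.26). Mrpl4, of the large ribosomal subunit, had them at 1827, 1868 and 25817 bp, with 0.133 in CAF-1 knockdown cells and 0.115 in Renilla cells (0.21). The lower bound of enrichment at its Chaf1a.166 position was 0.706, so enrichment there was not secure. With a lower bound of at least 2, Mrpl30 was near a Chaf1a.2122 position only, and Mrpl4 and Tomm7 were near none. The shared promoter of Sdhd and Timm8b had a position 17 bp from the Sdhd start in the Chaf1a.2122 list and 25 bp in the Renilla list, but 49102 bp away in the Chaf1a.166 list, so here the lists of the hairpins against Chaf1a did not match each other.

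Over all classes the promoter ratio did not follow the presence of a Sox2 position in a way these counts can show. The 17 promoters with a position within 500 bp in any list had a median ratio of -0.068 (interval -0.14 to 0.14), and 7 were higher in CAF-1 knockdown cells. The 74 without one had a median of 0.041 (interval -0.046 to 0.12), and 40 were higher. Among other genes the medians were -0.028 with a position and -0.0061 without. At enhancers a Sox2 position within 500 bp was found for 8 of the 219 in any list (3.65%), against 4.80% of the others. These included an enhancer of Slc25a36 with positions 74 and 21 bp away in the Chaf1a.166 and Chaf1a.2122 lists, and 254863 bp away in the Renilla list. That enhancer had 0.126 in CAF-1 knockdown cells and 0.160 in Renilla cells (-0.34), while the promoter of the gene was at 0.35.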

How the data were processed

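Sono-seq (3 CAF-1 knockdown and 3 Renilla libraries) and Sox2 ChIP-seq (1 immunoprecipitate and 1 input per hairpin) of day 3 were used, 12 of 61 samples; the other 49 were not analysed here, and Chaf1a was not measured in these files. The genome is mm9, and the submitters' processing notes name BWA 0.7.8 and Bowtie but give neither a role. No source used here names the program behind the Sox2 positions. The authors deposited, per the file headers, for each Sox2 position a score, an FDR (q-value) and an enrichment ratio over input with a lower bound, which served only to rank or filter positions within a list. The Sono-seq values are 1 deposited number per condition and region, treated as a score because their scaling and the pooling of libraries are not stated. Read depth is therefore unknown.

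Promoters and enhancers were counted once per position (5513 and 14265). Symbols turned into dates (136 rows) were restored through RefSeq transcripts, of which 5411 of 5510 were found. The log2 ratio of CAF-1 knockdown over Renilla had no pseudocount, since no value was 0. Called were log2 ratios of at least 0.32 in size. Levels were matched by quartiles of the mean of both conditions. Sox2 was near within 10 kb and at a start site within 500 bp. Intervals of medians come from order statistics and those of shares are exact Clopper-Pearson, at 95%; they cover counting error only and take regions as independent. No p-value is given, since neither assay has replicate values. Start sites within 1000 bp were compared as pairs.

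The members, the list of other mitochondrial genes and the rules were chosen with earlier results of these data known. Named were the highest and lowest promoter of each role, each promoter past the threshold, the genes nearest to Sox2 in 3 list classes, each gene with Sox2 within 500 bp, the 5 highest and 5 lowest enhancers above the median level, the 3 genes with most enhancers, and the 3 highest and 3 lowest promoters by level. Genes outside the families, the enhancers of Cox6b2, Mrpl15, Tomm20 and Ndufs4, and Ndufb9 were singled out after their values were seen. Some genes that these rules name are not reported here. The steps were checked on simulated data with known answers. Python 3.11.15, pandas 2.3.3, numpy 2.4.6 and scipy 1.17.1 were used.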

Additional observations from a re-analysis of the deposited data

How the results depend on the processing

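The median ratios of mitochondrial promoters and enhancers stayed within their main intervals under all alternatives run. These were the same median or sum over all regions (which moves the median of all regions by 0.019 and 0.022 on the log2 scale), a pseudocount of 0.0139, regions above the median level, 1 promoter per gene, leaving out the carriers or assembly factors, and, chosen after seeing the data, autosomes only, leaving out Cox4nb, Slc25a17 and Tomm34, and counting neighbouring mitochondrial start sites once. Scaling to the same sum left the promoter median at 0.0096, against -0.032 for the others. The median level percentile was 54.4 from CAF-1 knockdown values alone and 50.6 from Renilla values alone. Among regions above the median level, 6 promoters were higher (13.0%, others 6.53%) and 3 lower (6.52%, others 6.27%) past the threshold, and 15 enhancers higher (13.5%, others 10.1%) and 5 lower (4.50%, others 4.29%), by construction fewer. Without the carriers 5 enhancers were lower (2.91%, others 6.62%). At 1.5-fold 0 promoters were higher and 0 lower (others 0.33% and 0.83%), and 4 enhancers higher (1.83%, others 0.75%) and 0 lower (others 0.55%). At 1.1-fold 33 promoters were higher (36.3%, exact interval 26.4% to 47.0%, others 25.3%) and 21 lower (23.1%, exact interval 14.9% to 33.1%, others 27.9%). The interval of the higher share lies above the others' share, and that of the lower share covers it. At the same fold 71 enhancers were higher (32.4%, others 31.8%) and 45 lower (20.5%, others 23.2%). Within 2 kb the lists were near 17 (Chaf1a.166; 19.1%, others 13.7%), 18 (Chaf1a.2122; 20.2%, others 16.8%) and 16 genes (Renilla; 17.98%, others 14.2%), all 3 near 9 (10.1%, others 8.47%) and the Renilla list alone near 2 (2.25%, others 2.63%). The shares of the 3 lists thus lay above those of the others within 2 kb, while within 10 kb those of Chaf1a.166 and Renilla lay below; the exact interval covered the others' share each time. Within 20 kb the Renilla list alone was near 2 (2.25%, others 3.73%). Within 50 kb the counts were 57 (Chaf1a.166; 64.0%, others 65.8%), 69 (Chaf1a.2122; 77.5%, others 70.4%) and 57 (Renilla; 64.0%, others 66.5%), with 46 in all 3 lists (51.7%, others 56.0%), 8 in both Chaf1a lists only (8.99%, others 4.30%) and 5 in the Renilla list only (5.62%, others 3.06%). When the enrichment's lower bound had to reach 2, the Chaf1a.166 list was near 11 genes and the Renilla list near 14, with 3 in all 3 lists (Atp5d, Slc25a4 and Slc25a40; 3.37%, exact interval 0.70% to 9.54%, others 11.9%) and 3 in the Renilla list only (Atp5h, Ndufaf3 and Ndufs7; 3.37%, others 3.22%). Ndufs4 was not among these, and both Chaf1a lists alone then held Ndufb9, Slc25a1 and Slc25a38. With the best 15888 positions of each list, the Renilla list alone was near 4 genes (others 2.84%). The membership of the list classes thus depends on the threshold. For all 3 lists at a lower bound of 2, the others' 11.9% lies above the exact interval of the mitochondrial share. This interval and that of the 1.1-fold higher promoters are among many compared, with no correction for their number. No paired analysis was possible because the table holds 1 value per condition and each Sox2 list comes from 1 library; for the same reason single libraries could not be left out.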

Other observations

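Across the 89 mitochondrial genes the promoter ratio and the mean ratio of the gene's enhancers had a Pearson r of 0.13 and a Spearman rho of 0.079, and were of the same sign in 50 (56.2%). Across the 5065 other genes the values were 0.024, 0.013 and 49.7%. These are descriptions across genes, which share libraries, enhancers and start sites and are not independent replicates.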
